A study of Mus musculus with 6 samples.

Results

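The miRNAs miR-193b, miR-193 and miR-365 (probes mmu-miR-193b, mmu-miR-193 and mmu-miR-365) were measured in mouse liver with and without Wnt/β-catenin dependent hepatocarcinoma. They were taken from the NanoString miRNA panel by name, as every probe called miR-193, miR-193a, miR-193b or miR-365 on any arm, and 3 of the 566 mouse miRNA probes on the panel met this rule. Livers of 3 *Apcfl/fl* mice, homozygous for a hypomorphic *Apc* allele and bearing hepatocarcinoma (HCC), were compared with the healthy livers of 3 *Apc+/+* mice. All 6 mice were of the C57Bl/6 background, and RNA was extracted from fresh frozen liver. The sources used here give neither age nor sex, and they do not say which share of an *Apcfl/fl* sample was tumour. The NanoString assay binds each miRNA to a probe with a colour barcode and counts single bound molecules, with no amplification step.

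A miRNA is cut from the stem of an RNA hairpin and guides the silencing complex to messenger RNAs, chiefly through its seed (bases 2 to 8 from the 5′ end), so that miRNAs with a common seed share many predicted targets. The miR-193 and miR-365 hairpins lie together in the genome in 2 copies of an ancestral cluster. MiR-193b is known to act on the messengers of the survival factor Mcl1 and of cyclin D1, and the miR-193b and miR-365 cluster is also known from brown adipocyte and muscle differentiation. The study used the profile to look for partners of uc.158−, an ultraconserved non-coding transcript that might sequester miRNAs. It reports miR-193b among the miRNAs with a predicted site in uc.158− that were lower in *Apcfl/fl* liver, and followed it in cell line experiments. The study also reports miR-193b to be lower in human cholangiocarcinoma than in adjacent tissue of the same patients, and measured it in serum of patients with HCC. The question for each member was therefore whether its level was lower with the tumour.

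The mature sequences are shown because they decide which members can be told apart. They come from RefSeq (GRCm38.p6), 5′ to 3′, with the seed in capitals.
miR-193b-3p: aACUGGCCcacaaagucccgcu
miR-193a-3p: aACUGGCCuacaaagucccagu
miR-365-3p: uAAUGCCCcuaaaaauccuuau
MiR-193b-3p and miR-193a-3p had the same seed and were identical at 19 of 22 positions. Counted from the 5′ end of miR-193b-3p, miR-193a-3p differed by C9U, G20A and C21G. Among 1679 mature miRNA names in the RefSeq table the seed ACUGGCC occurred in these 2 alone, and the seed AAUGCCC in miR-365-3p alone. The panel names give no arm. Under the older naming used on the panel, a name without an arm or a star stood for the main strand, which is the 3p strand for these miRNAs, and RefSeq lists mir-193 as a former name of Mir193a. The 5p strands were not analysed here.

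The hairpins are shown because they separate the 2 sources of miR-365. They are RefSeq sequences of GRCm38.p6, all on the + strand, with the mature 3p strand in capitals, and the positions are those of the RefSeq genes, since the counts name no genome build.
Mir193b, chr16:13449523-13449601: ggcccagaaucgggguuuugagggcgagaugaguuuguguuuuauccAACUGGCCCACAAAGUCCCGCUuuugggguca
Mir365-1, chr16:13453840-13453926: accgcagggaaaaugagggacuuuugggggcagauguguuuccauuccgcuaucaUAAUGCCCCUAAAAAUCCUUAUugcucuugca
Mir193a, chr11:79711969-79712034: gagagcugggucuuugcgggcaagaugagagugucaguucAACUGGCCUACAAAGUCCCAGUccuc
Mir365-2, chr11:79726400-79726511: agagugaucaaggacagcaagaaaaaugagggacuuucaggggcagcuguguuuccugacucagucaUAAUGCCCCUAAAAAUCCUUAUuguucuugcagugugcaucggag
Mir193b and Mir365-1 lay 4238 bases apart within the annotated spans of the long non-coding RNA genes Gm32817 and Gm53058. Mir193a and Mir365-2 lay 14365 bases apart and within no other gene of the RefSeq table. The mature miR-365-3p of both hairpins was identical over all 22 bases. The single miR-365 probe therefore cannot separate the products of the clusters, whereas miR-193b and miR-193 are each encoded in only 1 of them. The probe sequences were not available. Whether the miR-193 and miR-193b probes also bound the other paralogue was not tested.

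The 6 livers gave 82942 to 133331 mouse miRNA counts each. A minimum of 20 for the mean count left 174 mouse miRNAs in the test, and all 3 members passed. Background was judged from the 33 probes for viral miRNAs, whose mean plus 2 SD lay between 13.1 and 27.8 counts per liver. Every liver had the hepatocyte markers miR-122, miR-192, miR-194 and miR-802 above this limit. Together they held 23.6% to 30.7% of the counts in *Apc+/+* and 9.43% to 14.1% in *Apcfl/fl* liver. Most of this was miR-122, with 16793, 26023 and 29686 deposited counts in *Apc+/+*, against 6688, 10701 and 15416 in *Apcfl/fl* livers. After TMM scaling (explained below) the log2 fold change was -1.71 for miR-122 and -1.33 for miR-802, but -0.39 for miR-192 and -0.52 for miR-194. The ranges of the share of counts were 0.722% to 1.15% against 0.372% to 0.833% for 5 stromal markers, 1.0% to 1.13% against 1.2% to 4.46% for 7 blood cell markers, and 2.19% to 3.64% against 2.69% to 4.08% for both strands of the endothelial miR-126. The highest blood cell share was that of *Apcfl/fl* liver 2, where most of it was miR-451 (3593 counts). The 4 muscle markers held 0.018% to 0.0666% against 0.0126% to 0.0249%, and 3 of them did not pass the limit in any liver. Shares of counts depend on the total count. After TMM scaling the median log2 fold change of the tested markers was -0.92 for hepatocyte and for stromal markers. It was -0.34 for endothelial and 0.45 for blood cell markers, beside 0.01 over all 174 miRNAs. The endothelial direction thus turned with the scaling, as its range of shares was higher at both ends in *Apcfl/fl*. The part of these cell type differences in the values below was not tested, and in whole liver RNA fewer cells of a type and less RNA per cell cannot be told apart. *Apc+/+* liver 3 stood apart in composition, with 33% of its counts on the miR-720 probe against 15.7% to 25.7% elsewhere. Its scaling factor by the trimmed mean of M-values (TMM), which sets libraries level on the bulk of their miRNAs, was 0.655, against 0.959 to 1.25 in the other livers.

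MiR-193b (mmu-miR-193b, MIMAT0004859) was detected in every liver, and its level did not differ between the genotypes beyond the spread between mice. *Apc+/+* livers had 133.33, 139.33 and 203.33 deposited counts and *Apcfl/fl* livers 195.33, 150.33 and 201.33, which was 5.99 to 14.2 times the viral probe limit. After TMM scaling between livers the normalized counts were 168.3, 171 and 249.7 among *Apc+/+* livers, against 175.7, 159.2 and 132.2 among *Apcfl/fl* livers. *Apc+/+* liver 3 was the highest and *Apcfl/fl* liver 3 the lowest, and the other 4 livers lay together between them. The mean was 196.4 ± 46.3 (SD, n = 3) for *Apc+/+*, against 155.7 ± 22 (SD, n = 3) for *Apcfl/fl*. The fold change was 0.793 (95% confidence interval 0.513 to 1.22), a log2 fold change of -0.33 with a standard error of 0.27 and an adjusted p of 0.456 in edgeR's quasi-likelihood test. The groups overlapped, and a two-sided exact permutation test gave p = 0.3. The log2 value went to -0.02 when *Apc+/+* liver 3 was left out, and to 0.11 when libraries were scaled by their total count.

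MiR-193 (mmu-miR-193, MIMAT0000223), the seed-sharing paralogue from the other cluster, was the dimmest of the members and had the lowest fitted change. *Apc+/+* livers had 38.33, 41.33 and 34.33 deposited counts and *Apcfl/fl* livers 44.33, 28.33 and 36.33, which was 1.59 to 2.39 times the viral probe limit. Normalized counts were 48.4, 50.7 and 42.2 among *Apc+/+* livers, against 39.9, 30 and 23.9 among *Apcfl/fl* livers. All 3 *Apcfl/fl* livers lay below all 3 *Apc+/+* livers, by a margin of 39.9 against 42.2 between the nearest livers. The means were 47.1 ± 4.43 and 31.2 ± 8.08 (SD, n = 3 in each genotype). The fold change was 0.663 (95% confidence interval 0.352 to 1.25), a log2 fold change of -0.59 with a standard error of 0.39 and an adjusted p of 0.372 in edgeR's test. The two-sided exact permutation test gave p = 0.1, the smallest that 3 mice against 3 allow.

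An absence of overlap, as for miR-193, was common in this profile. Among the 174 tested miRNAs 32 (18.4%) lay in the same way below the *Apc+/+* range and 26 (14.9%) above it, and of the 3 members 1 lay below and 0 above. It also depended on the scaling. When libraries were scaled by their total count, miR-193 stood at 49.4, 47.5 and 27.5 among *Apc+/+* livers, against 49.1, 29.4 and 29.3 among *Apcfl/fl* livers (exact permutation p = 0.9). A size factor taken over the top 100 miRNAs also left the groups overlapping (exact permutation p = 0.2). At these counts the counting error alone was wide. The exact 95% Poisson interval around the 28 counts of *Apcfl/fl* liver 2 ran from 18.6 to 40.5, and that around the 44 counts of *Apcfl/fl* liver 1 from 32 to 59.1.

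MiR-365 (mmu-miR-365, MIMAT0000711), whose counts cannot be assigned to 1 of the clusters, gave the highest counts of the members. *Apc+/+* livers had 365.67, 303.67 and 235.67 deposited counts and *Apcfl/fl* livers 391.67, 272.67 and 652.67. Normalized counts were 461.5, 372.8 and 289.5 among *Apc+/+* livers, against 352.3, 288.8 and 428.5 among *Apcfl/fl* livers. Both genotypes spanned much the same range, and the livers alternated along it. The means were 374.6 ± 86 and 356.6 ± 70 (SD, n = 3 in each genotype), a fold change of 0.952 (95% confidence interval 0.624 to 1.45). Its log2 fold change was -0.07 with a standard error of 0.26 (adjusted p = 0.871 in edgeR's test), and the exact permutation test gave p = 0.7. This sign was not stable, and the log2 value was 0.3 when libraries were scaled by their total count.

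**Figure D1:**
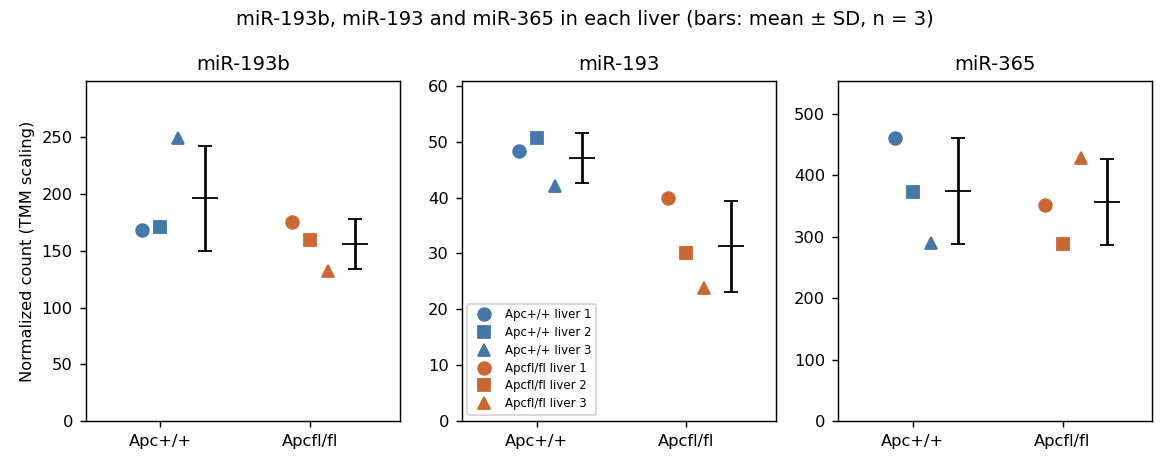
Normalized count (y axis, TMM scaling) of miR-193b, miR-193 and miR-365 in the 3 *Apc+/+* and 3 *Apcfl/fl* livers; each symbol is 1 liver, and the black bars give the mean ± SD of the genotype. The genotypes overlap for miR-193b and miR-365, and for miR-193 the *Apcfl/fl* livers (23.9 to 39.9) lie below the *Apc+/+* livers (42.2 to 50.7).

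Of the 3 members, 0 reached an adjusted p under 0.05 in edgeR's test, where the background over the 174 tested miRNAs was 0% lower and 0% higher. At an unadjusted p under 0.05 it was again 0 of 3, against 10.9% of the tested miRNAs lower and 13.8% higher. DESeq2 and limma also called 0 of the 3. Over the 174 tested miRNAs DESeq2 called 9 lower and 20 higher, and limma 3 lower and 1 higher. The adjusted p-values of the members lay within the range of 0.274 to 0.974 that all alternatives gave for them. By p-value miR-193 was number 79, miR-193b number 94 and miR-365 number 158 of 174. In each of the 13 alternatives that tested all 3 members, miR-193 had the lowest fold change of the 3, while the signs of miR-193b and miR-365 turned in some. The intervals above allow a change of miR-193b from 0.513-fold to 1.22-fold and of miR-193 from 0.352-fold to 1.25-fold, so that the data do not show the members to be alike in both genotypes.

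**Figure D2:**
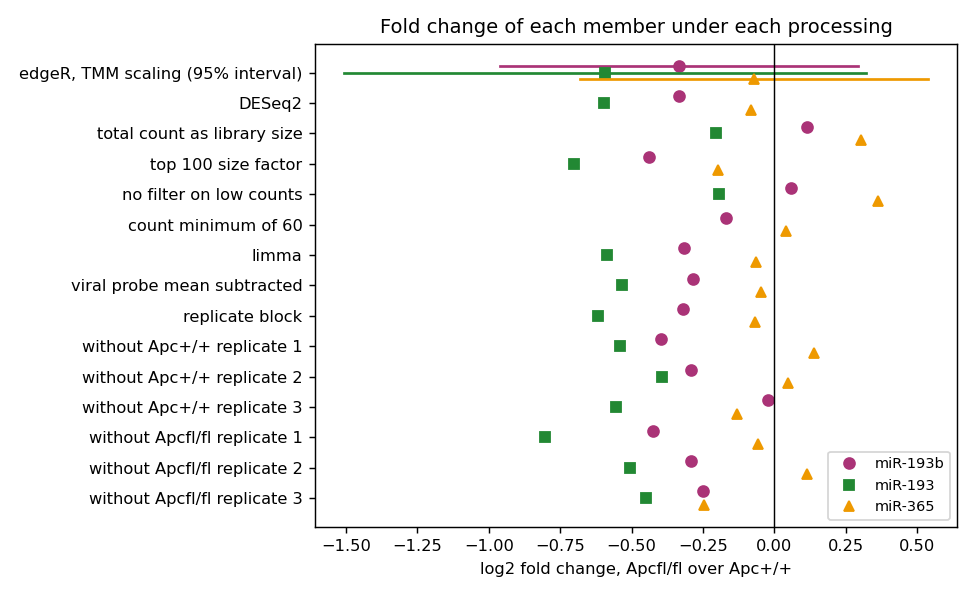
Log2 fold change of *Apcfl/fl* over *Apc+/+* liver (x axis) for the members under each processing (y axis), with the 95% confidence interval for edgeR with TMM scaling in the top row. MiR-193 lies below 0 in every row that tested it, whereas miR-193b and miR-365 lie above 0 with the total count (0.11 and 0.3) and with no filter on low counts (0.06 and 0.36).

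Ratios of members within a liver do not depend on the scaling between livers. The ratio of deposited counts is also a ratio of 2 probes, which may capture their targets with unequal efficiency, so only its change between livers was compared. The 3 ratios were each tested between the genotypes with a two-sided exact permutation test on the log2 scale, and none differed beyond the spread between mice.

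The ratio of miR-193b to miR-365 compares neighbours of the chromosome 16 cluster, with the share of miR-365 that came from chromosome 11 unknown. It was 0.365, 0.459 and 0.863 among *Apc+/+* livers, against 0.499, 0.551 and 0.308 among *Apcfl/fl* livers. Its highest and lowest values, in *Apc+/+* liver 3 and *Apcfl/fl* liver 3, differed 2.8-fold, and *Apc+/+* liver 3 was the liver with the largest share of miR-720. The exact 95% binomial intervals of these livers, 0.709 to 1.04 and 0.261 to 0.361, did not meet, nor did that of *Apc+/+* liver 3 meet those of the other *Apc+/+* livers (0.296 to 0.444 and 0.371 to 0.561). These intervals cover counting error only. The log2 difference between genotypes was -0.26 (standard error 0.45, exact permutation p = 0.7, adjusted over the 3 ratios 0.7). Without *Apc+/+* liver 3 it was 0.1.

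The ratio of miR-193b to miR-193 compares the seed-sharing paralogues of the separate clusters. It was 3.48, 3.37 and 5.92 among *Apc+/+* livers, against 4.41, 5.31 and 5.54 among *Apcfl/fl* livers. The lowest values were those of *Apc+/+* livers 1 and 2, and *Apc+/+* liver 3 was above all *Apcfl/fl* livers. The log2 difference was 0.3 (standard error 0.28, exact permutation p = 0.4, adjusted 0.6), and 0.56 without *Apc+/+* liver 3 (exact permutation p = 0.1, the smallest that 2 livers against 3 allow). The binomial intervals of all 6 livers shared a common stretch, from 4.14 to 4.93, so that counting error alone could cover the spread of this ratio.

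The ratio of miR-193 to miR-365 was 0.105, 0.136 and 0.146 among *Apc+/+* livers, against 0.113, 0.104 and 0.0557 among *Apcfl/fl* livers. *Apcfl/fl* liver 3, which had the most miR-365 counts, was the lowest, with a binomial interval of 0.0383 to 0.0771 that overlapped that of *Apc+/+* liver 1 (0.0723 to 0.145) but not those of *Apc+/+* livers 2 and 3. The log2 difference was -0.56 (standard error 0.35, exact permutation p = 0.2, adjusted 0.6). Without *Apcfl/fl* liver 3 it was -0.23.

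**Figure D3:**
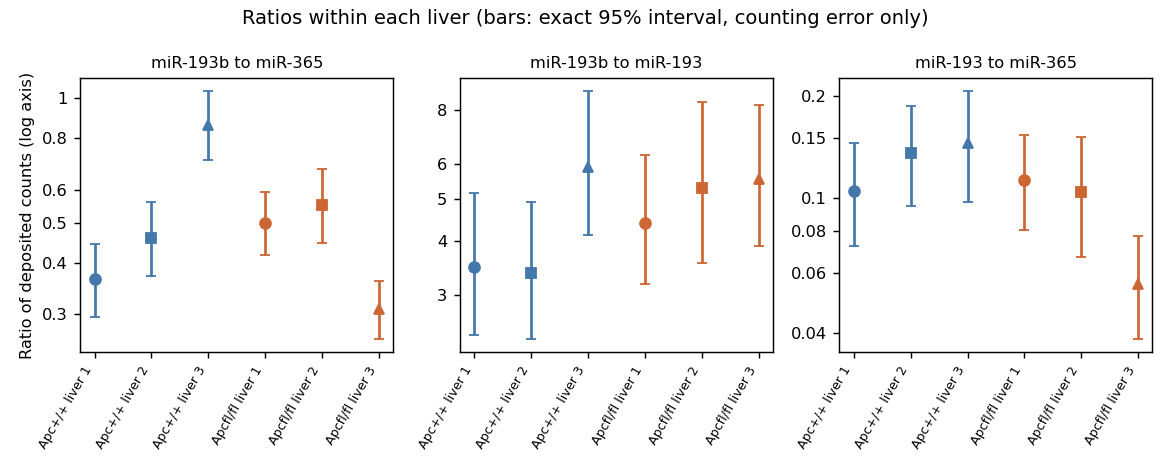
Ratio of deposited counts between members in each liver (y axis, log scale) with its exact 95% binomial interval, for the *Apc+/+* (blue) and *Apcfl/fl* (orange) livers. *Apc+/+* liver 3 (0.863) and *Apcfl/fl* liver 3 (0.308) stand at opposite ends for miR-193b to miR-365, while the intervals for miR-193b to miR-193 share the stretch from 4.14 to 4.93 in all livers.

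How closely the members ran together was described by the SD of their log2 ratio over the 6 livers, which is 0 for miRNAs that rise and fall in proportion. For miR-193b and miR-365 this SD was 0.52, where counting error alone would give 0.14. For miR-193 and miR-365 it was 0.49 against 0.25, and for miR-193b and miR-193 it was 0.35 against 0.26. The seed-sharing paralogues thus had the smallest SD of the member pairs, and the neighbours of the chromosome 16 cluster had the largest SD, 3.75 times that of counting error. The part of probe binding to the other paralogue in the small SD of miR-193b and miR-193 was not tested.

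Among the 173 other tested miRNAs as partners of miR-193b, miR-193 was number 19 and miR-365 number 50 by this SD, and the median partner had 0.68. Among the partners of miR-193, miR-193b was number 13 and miR-365 number 41 (median 0.74). Among the partners of miR-365, miR-193 was number 48 and miR-193b number 54 (median 0.65). MiR-365 rose to number 27 for miR-193b without *Apc+/+* liver 3 and to number 6 for miR-193 without *Apcfl/fl* liver 3. With the Pearson correlation of normalized log2 counts in place of the SD, miR-365 was number 145 for miR-193b, with a coefficient of -0.58. After scaling these neighbours thus tended to move in opposite directions over the 6 livers. The coefficient was 0.07 for miR-193 with miR-365 and 0.57 for miR-193b with miR-193. A small SD of the log2 ratio also arises where both miRNAs vary little, so it does not by itself show that they move together. These ranks are descriptions over 6 livers, and they depend on depth, since a dim partner carries more counting error.

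Other miRNAs of neighbouring genes give a measure for the cluster pairs. In every liver, 109 of the tested miRNAs passed the viral probe limit, the 3 members included. Of these, 78 were matched to a RefSeq hairpin, and among the 78 there were 25 pairs within 20 kb of each other. The median SD of the 25 pairs, both member pairs included, was 0.46. Over all 5886 pairs of the 109, matched to a hairpin or not, the median was 0.74. MiR-193 and miR-365 were number 16 of the 25, and miR-193b and miR-365 number 18. Both lay nearer to the median of neighbours than to that of all pairs. MiR-192 and miR-194 (SD 0.17) and miR-23a and miR-27a (SD 0.23) ran closer. These counts assign no locus to miRNAs made from several genes.

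**Figure D4:**
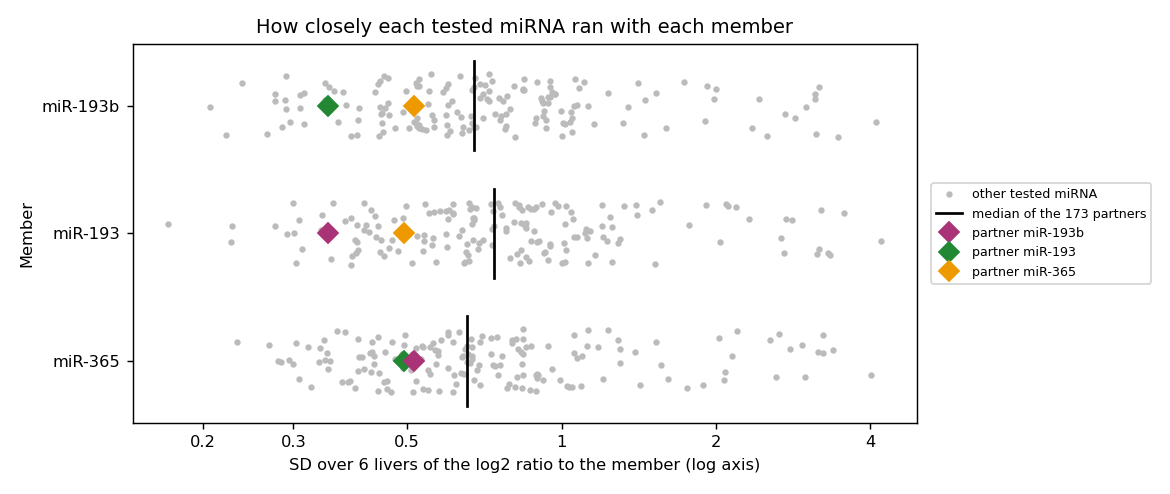
SD over the 6 livers of the log2 ratio between each member (rows) and each of the 173 other tested miRNAs (x axis, log scale); grey points are miRNAs that are no members, diamonds are the other members, and the black line is the median of the partners. All member pairs (0.35 to 0.52) lie left of the medians (0.65 to 0.74), and the closest partners are not members.

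The closest partners differed between the members. For miR-193b they were miR-1935 (SD 0.21), miR-1951 (0.22) and the probe for miR-20a and miR-20b (0.24). Deposited counts of miR-1935 were 101.33, 134.33 and 209.33 among *Apc+/+* livers, against 146.33, 147.33 and 200.33 among *Apcfl/fl* livers, with its highest count in *Apc+/+* liver 3 as for miR-193b. For miR-193 they were miR-99a (0.17), miR-30e (0.23) and miR-29c (0.23). Those of miR-99a were 168.33, 162.33 and 161.33 among *Apc+/+* livers, against 206.33, 124.33 and 204.33 among *Apcfl/fl* livers, where *Apcfl/fl* liver 2 was the lowest as for miR-193. For miR-365 they were miR-126-3p (0.23), the endothelial miRNA, miR-29a (0.27) and miR-574-5p (0.28). Those of miR-126-3p were 2622.67, 2659.67 and 2503.67 among *Apc+/+* livers, against 2751.67, 2427.67 and 4845.67 among *Apcfl/fl* livers. Like miR-365, it had its highest deposited count in *Apcfl/fl* liver 3. Deposited counts are not scaled for depth, and these orders of livers changed with scaling. After TMM scaling miR-365 in *Apcfl/fl* liver 3 (428.5) lay below *Apc+/+* liver 1 (461.5). The lowest miR-193 was then in *Apcfl/fl* liver 3 (23.9), not in *Apcfl/fl* liver 2 (30). Each of these 9 partners had an adjusted p above 0.05 between the genotypes in edgeR's test, as did all 174 tested miRNAs.

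Other miRNAs linked to brown adipocyte and muscle differentiation were low in these livers or did not pass the adjusted test. Of 14 probes, 7 did not pass the viral probe limit in any liver and 5 were tested. At an adjusted p under 0.05 edgeR called 0 of the 5 (background 0% in each direction), and at an unadjusted p under 0.05 1 was lower and 1 higher (background 10.9% and 13.8%). Their median log2 fold change was -0.05, beside 0.01 over all 174. The 1 lower was miR-203, known from skin and brown fat, with deposited counts of 121, 111 and 86 among *Apc+/+* livers, against 85, 59 and 135 among *Apcfl/fl* livers. Normalized by TMM, its groups did not overlap (131.5 ± 23.9 against 75.9 ± 13.1, SD, n = 3 in each genotype, adjusted p = 0.148 in edgeR's test). The same held in that direction for 32 (18.4%) of the 174 tested miRNAs, and the overlap of miR-203 under other scalings was not examined. The 1 higher was miR-155, a miRNA of activated leucocytes, which stood at the lowest value of 1 in all *Apc+/+* livers and in *Apcfl/fl* liver 1 and at 78.33 and 58.33 in the other *Apcfl/fl* livers (adjusted p = 0.0872 in edgeR's test). No fold is given for it, as it was below the limit in 4 of the 6 livers, and DESeq2 called it while limma did not.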

How the data were processed

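Counts came from livers of 3 *Apcfl/fl* and 3 *Apc+/+* mice, grouped by the sample labels. Nothing in the labels says more of how the replicates were obtained. The authors deposited estimated counts per probe, not scaled between livers. A constant of each probe had been subtracted beforehand, as all values above 1 of a probe shared a decimal part (584 of 584 probes), and values were floored at 1 (446 of 3594). The correction software is not given in the sources used here. Every value column belonged to 1 liver. No liver was a duplicate of another, as chi-square per degree of freedom between livers of a genotype was 17.2 to 89.1.

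Counts were rounded and tested with edgeR 4.0.16 in R 4.3.3 (quasi-likelihood test, TMM, Benjamini-Hochberg over the 174 mouse miRNAs whose mean count reached 20, which held 97.3% of the counts, genotype only). Log values for permutation tests used a prior count of 2. Ratios used the unrounded counts. The fit was tested on simulated data. Alternatives were DESeq2 1.42.0, limma 3.58.1, total count, a size factor from the top 100 miRNAs, no filter, a count minimum of 60, viral probe subtraction, a replicate block, 5 counts added to ratios, Pearson correlation, and each liver left out. The comparison of neighbouring genes and the levels under other scalings were added after the data were seen.

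Named miRNAs were the members, any with a member's seed, the 3 closest partners of each member by SD, and from the brown adipocyte list any called or the smallest p in each direction. MiR-720, the cell type markers and the neighbouring miR-192, miR-194, miR-23a and miR-27a were named outside that rule. Members and lists were chosen with earlier results of these data known. Sequences of the 3 members were matched by name to RefSeq, and all 3 matched. Intervals from counts cover counting error only.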

Additional observations from a re-analysis of the deposited data

How the results depend on the processing

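The log2 fold change of miR-193 stayed below 0 in all 13 alternatives that tested it (-0.8 to -0.19, adjusted p 0.274 to 0.892), and with a count minimum of 60 it was not tested. Those of miR-193b and miR-365 turned positive with the total count (0.11 and 0.303), where the median of all tested miRNAs rose to 0.45, so that relative to that median they were -0.34 and -0.15. They were also positive with no filter (0.060 and 0.36), and miR-365 was positive with the count minimum of 60 (0.040). With 1 liver left out miR-193b ranged from -0.43 to -0.02, and miR-365 from -0.25 to 0.14, where it was positive without *Apc+/+* replicate 1 (0.14), *Apc+/+* replicate 2 (0.05) and *Apcfl/fl* replicate 2 (0.11). No alternative gave a member an adjusted p under 0.05. The cause of these turns was not tested.

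The number of miRNAs called lower and higher (0 and 0, with 19 and 24 at an unadjusted p under 0.05) was 9 and 20 with DESeq2, 6 and 1 with the size factor over the top 100, 3 and 1 with limma, 1 and 16 when scaled by the total count, 7 and 12 after viral probe subtraction, and 6 and 12 at a count minimum of 60. Leaving out 1 liver gave 0 to 8 lower and 0 to 11 higher, the most of each without *Apcfl/fl* replicate 3. In the brown adipocyte list miR-155 was called (1 member) with DESeq2 and with the total count, and leaving out 1 liver gave 0 to 1 calls, the 1 without *Apcfl/fl* replicate 1.

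The ratio of miR-193b to miR-365 turned from -0.26 to 0.103 without *Apc+/+* replicate 3, the upper end of a range from -0.52 over the livers left out. The ratios of miR-193b to miR-193 (0.16 to 0.56) and of miR-193 to miR-365 (-0.75 to -0.23) kept their sign in all 9 alternatives. With the Pearson correlation miR-365 was number 145 among the partners of miR-193b and number 75 among those of miR-193. With 1 liver left out the rank of miR-365 was 27 to 74 for miR-193b and 6 to 59 for miR-193, and that of miR-193 for miR-193b was 13 to 29, highest without *Apcfl/fl* replicate 1.

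Same-numbered livers did not deviate together (correlations of -0.06, -0.06 and 0.12), so the numbers were not taken as pairs. With the replicate block 3 miRNAs were called lower and 4 higher, the log2 fold changes of miR-193b, miR-193 and miR-365 were -0.32, -0.62 and -0.07, and the paired exact sign-flip test of the ratio of miR-193b to miR-365 (-0.26) gave p = 1, where 3 pairs cannot go below 0.25.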
